A study of Mus musculus with 2 samples.

Results

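The vomeronasal type 1 receptor genes of the mouse, Vmn1r genes, were examined as a family whose known site of use lies outside the blood lineages. They were taken as the RefSeq protein-coding genes of GRCm38 on chromosomes 1 to 19 whose symbol is Vmn1r followed by a number, which gave 230 of 20661 protein-coding genes. The libraries were 1 of bone marrow-derived macrophages given IL-4 at 20 ng/ml for 4 h and 1 of untreated macrophages, both grown with M-CSF at 20 ng/ml. The series design names wild-type cells, and no PHLPP1-deficient, control antibody or input library was analysed here. DNA next to PHLPP1, a phosphatase known to act on AKT, was tagged by CUT&Tag, in which an antibody guides a transposase to chromatin. Each library has 1 list of peaks, and the number of sequenced reads behind it was not used here. Each group has 1 library, so no difference between the lists has a replicate check or a test. RNA was not measured, so the word silent rests on the known biology of these genes and not on these files.

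Vmn1r proteins are G protein-coupled receptors on sensory neurons of the vomeronasal organ, where they detect pheromones and other chemical cues. A neuron generally uses a single receptor gene of the family and keeps the others off. The signal runs through the G protein subunit Gnai2 and the cation channel Trpc2. The genes stand in tandem arrays, and each has its coding sequence in a single exon.

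The 230 genes lay on 7 chromosomes, with 126 on chromosome 7, 51 on chromosome 6, 35 on chromosome 13, 14 on chromosome 17, 2 on chromosome 4 and 1 each on chromosomes 1 and 18. Joined where under 500 kb apart, they formed 16 clusters, 3 of them of 1 gene. The median gene was 924 bp long, with a range of 870 to 33695 bp, and 200 lengths were multiples of 3, so many of these gene models hold coding length only. An annotated start can therefore lie away from the start of transcription.

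Of the 230 genes, 205 had a promoter in the RefSeq table of GRCm38.p6, of 250 bases before and 50 bases after the start. The first pair below is from the 3 genes with an end peak in both lists, that is a summit within 1 kb of either annotated gene end. Vmn1r72 is at chr7:11670470-11670769 on the minus strand and Vmn1r75 at chr7:11880093-11880392 on the plus strand. Smc2, encoding a condensin subunit, at chr4:52438971-52439270 on the plus strand, is set beside them. It was taken because its peak had the highest −log10 q among the end peaks of the IL-4 list. Its end peaks had 41 fragments at the summit in IL-4 macrophages and 15 in untreated macrophages. Capitals mark CG, the dinucleotide that is methylated in mammals and reads the same on both strands.
Vmn1r72: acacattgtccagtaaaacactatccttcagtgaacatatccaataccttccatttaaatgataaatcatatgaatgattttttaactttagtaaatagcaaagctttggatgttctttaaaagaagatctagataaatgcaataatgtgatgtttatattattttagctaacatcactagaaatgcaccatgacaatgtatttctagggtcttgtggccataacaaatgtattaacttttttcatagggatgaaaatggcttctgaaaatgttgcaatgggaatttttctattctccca
Vmn1r75: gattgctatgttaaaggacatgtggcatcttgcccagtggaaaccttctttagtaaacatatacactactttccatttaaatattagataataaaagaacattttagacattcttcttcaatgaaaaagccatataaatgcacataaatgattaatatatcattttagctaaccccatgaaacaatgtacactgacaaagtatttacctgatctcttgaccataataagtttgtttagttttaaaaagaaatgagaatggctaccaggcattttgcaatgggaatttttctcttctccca
Smc2: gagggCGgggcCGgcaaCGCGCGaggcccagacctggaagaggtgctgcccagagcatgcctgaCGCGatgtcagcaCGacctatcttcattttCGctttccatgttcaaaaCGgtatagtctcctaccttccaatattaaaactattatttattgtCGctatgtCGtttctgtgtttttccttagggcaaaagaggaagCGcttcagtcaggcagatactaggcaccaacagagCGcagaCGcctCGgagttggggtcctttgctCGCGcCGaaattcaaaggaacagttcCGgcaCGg

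The second pair, the most alike of those that are not identical, shows how close promoters of the largest cluster are. Vmn1r111 at chr7:20703167-20703466 and Vmn1r242 at chr7:20233779-20234078, both on the minus strand, differ at 1 of 300 bases, marked by the capital. Neither gene had a peak within 50 kb in either list.
Vmn1r111: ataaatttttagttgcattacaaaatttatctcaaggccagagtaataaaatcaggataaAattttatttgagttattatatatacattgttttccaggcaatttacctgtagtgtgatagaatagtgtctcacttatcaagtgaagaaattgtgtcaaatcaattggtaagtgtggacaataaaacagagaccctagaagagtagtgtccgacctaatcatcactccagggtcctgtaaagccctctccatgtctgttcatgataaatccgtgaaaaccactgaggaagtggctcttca
Vmn1r242: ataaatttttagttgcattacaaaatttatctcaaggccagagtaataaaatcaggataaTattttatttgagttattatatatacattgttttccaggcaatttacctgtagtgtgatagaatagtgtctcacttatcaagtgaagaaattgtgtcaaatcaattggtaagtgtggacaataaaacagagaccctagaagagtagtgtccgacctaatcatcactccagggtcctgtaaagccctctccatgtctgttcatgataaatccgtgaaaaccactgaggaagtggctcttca

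The promoters of Vmn1r72 and Vmn1r75 held 0 CG each, and that of Smc2 held 21. The promoter of Vmn1r82, which also had an end peak in both lists and is not shown, held 1. Member promoters held a median of 1 CG (quartiles 1 and 2, highest 6, n = 205), against 16 (quartiles 6 and 25) in 15149 genes outside the chemosensory receptor families. CG stood in 78.5% of the 205 member promoters and in 94.6% of all 32851 promoters of the table. The median GC content was 36.0% in the members and 58.0% in those other genes.

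Vmn1r genes had few end peaks in either list. The strength of a peak is given below as fragments at its summit and as the authors' −log10 q. Fragments were solved from the authors' fold and p. The q is the authors' corrected p, and the set of tests it was corrected over was not examined here. Over all peaks, 25 of 230 (10.9%, exact binomial 95% interval 7.16 to 15.6) had an end peak in IL-4 macrophages and 19 (8.26%, 5.05 to 12.6) in untreated macrophages. Over all 20661 protein-coding genes the shares were 51.4% and 24.0%. All such intervals cover counting error only, and neighbouring genes are not independent of each other. The number of genes with an end peak was 1.32 times as high in IL-4 macrophages as in untreated macrophages for Vmn1r genes, and 2.15 times as high for all other protein-coding genes. This ratio was also 1.32 for olfactory receptor genes, and 1.41 for Vmn1r genes outside the largest cluster. With only as many of the best IL-4 peaks by p as the untreated list holds, 7.83% of Vmn1r genes had an end peak with IL-4 and 8.26% untreated, which turned the order, while all genes gave 40.6% and 24.0%.

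The lists had end peaks at mostly different Vmn1r genes. There were 22 in IL-4 macrophages only (9.57%), 16 in untreated macrophages only (6.96%), 3 in both (1.30%) and 189 in neither. All protein-coding genes gave 36.9% in IL-4 macrophages only, 9.39% in untreated macrophages only, 14.6% in both and 39.2% in neither. The untreated-only share of the family was near that of all genes, and its IL-4-only share was lower. A gene with an IL-4 end peak cannot count as untreated only, which lowers that share more for all genes. Counted whatever the IL-4 list held, untreated end peaks stood at 8.26% of Vmn1r genes and 24.0% of all genes. At a q of at most 0.05, 4 Vmn1r genes had an end peak in IL-4 macrophages and 4 in untreated macrophages (1.74% each), against 19.2% and 4.25% of all genes.

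Genes as short as the Vmn1r genes had more. Among 2327 genes outside the chemosensory families with a length between the 5th and 95th percentile of the Vmn1r genes, 897 to 4086 bp, 45.7% (43.6 to 47.7) had an end peak in IL-4 macrophages and 20.8% (19.1 to 22.5) in untreated macrophages. Over the whole length range of the family, 13546 other genes gave 50.5% and 23.2%. These sets hold every gene of that length, in place of random draws.

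**Figure D1:**
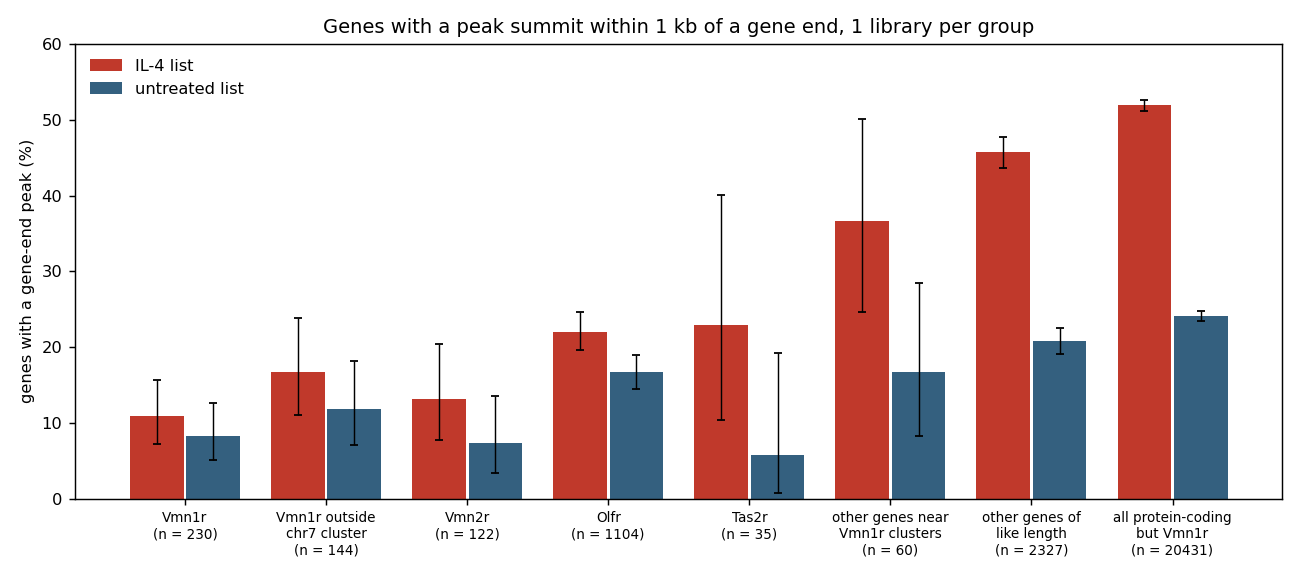
Share of genes with a peak summit within 1 kb of either annotated gene end, in percent, in IL-4 macrophages and untreated macrophages, for Vmn1r genes and other gene sets. Bars are 1 library each and lines are exact binomial 95% intervals, which cover counting error only. Vmn1r genes stand at 10.9% and 8.26%, below all other protein-coding genes at 51.9% and 24.1%.

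The other chemosensory receptor families also had low shares. Vmn2r genes, the second vomeronasal receptor family, had an end peak in 13.1% (7.69 to 20.4) of 122 genes in IL-4 macrophages and 7.38% (3.43 to 13.5) in untreated macrophages, close to the Vmn1r values. Olfactory receptor genes had 22.0% (19.6 to 24.6) and 16.7% (lower bound 14.5) of 1104, with lower bounds above the upper bounds of the Vmn1r genes in both lists. Without the largest Vmn1r cluster, Vmn1r genes had 16.7% (11.0 to 23.8) and 11.8% (7.03 to 18.2). These were still below the olfactory receptor values, but the intervals overlap. Among promoters with no repeated sequence, measured as described below, the untreated shares were 17.4% for Vmn1r genes and 17.7% for olfactory receptor genes. The IL-4 shares of the same promoters were 16.3% and 22.9%. Bitter taste receptor genes, Tas2r, had 22.9% (10.4 to 40.1) and 5.71% (0.700 to 19.2) of 35. At a −log10 q of at least 5, 1 Vmn1r gene had an end peak in IL-4 macrophages (0.435%, against 2.77% of all genes). None of the 230 had one in untreated macrophages, which allows up to 1.30%, against 0.0581% of all genes.

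The 1 peak at that level sits at the start of a neighbour. Vmn1r4 is annotated on chromosome 6 from 56923914 to 56957608, and its IL-4 peak runs from 56923708 to 56924288 with 10 fragments (exact Poisson 95% interval 4.80 to 18.4) at −log10 q 5.36. The untreated list had no end peak there. The summit lay 102 bp outside the annotated start of Vmn1r4 and 196 bp inside the end of Nt5c3, a nucleotidase gene on the minus strand whose start this is. The promoter listed for Vmn1r4 starts its transcript 32.7 kb farther along. Vmn1r4 was the only member whose end peak lay within 1 kb of an end of another protein-coding gene.

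Of the 3 genes with end peaks in the IL-4 and in the untreated list, Vmn1r75 had them at the same place. Its gene, on chromosome 7 from 11880343 to 11881260, held an IL-4 peak of 5 fragments (1.62 to 11.7, −log10 q 1.26) from 11880617 to 11880992 and an untreated peak of 7 fragments (2.81 to 14.4, −log10 q 1.57) from 11880787 to 11881009. The peaks shared 206 bp, the summits were 47 bp apart, and both lay inside the gene. The intervals of the fragment numbers overlap.

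Vmn1r82 had 4 fragments in each list, at peaks past its end that shared 44 bp. Vmn1r72 had 3 fragments in IL-4 macrophages, at a summit 184 bp upstream of its start, and 4 in untreated macrophages near its other end, with summits 1221 bp apart. These do not compare the same site.

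In the IL-4 list only, Vmn1r10, Vmn1r48 and Vmn1r53, all on chromosome 6, had 6 fragments each at −log10 q 1.84. The Vmn1r48 peak was inside the gene, on chromosome 6 from 90036305 to 90036454, and the Vmn1r53 peak likewise, while that of Vmn1r10 had its summit 664 bp outside. Vmn1r56, Vmn1r188 and Vmn1r200 had 5 fragments each at −log10 q 1.26. Over the whole IL-4 list 11 genes tied at 4 fragments, Vmn1r82 among them, and 6 had 3, the lowest number there, Vmn1r72 among them.

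In the untreated list only, Vmn1r13 had the strongest peak, with 8 fragments (3.45 to 15.8) at −log10 q 2.08, on chromosome 6 from 57210833 to 57211095, past the 3′ end of the gene. Vmn1r38 and Vmn1r199 had 7 fragments each at −log10 q 1.57, and Vmn1r22, Vmn1r40 and Vmn1r181 had 6 each at 1.11. Over the whole untreated list 6 tied at 5 fragments and 6 had 4, the lowest number there, Vmn1r72 and Vmn1r82 among them. The values of all 41 genes lie within a narrow range, apart from the 10 fragments at Vmn1r4.

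**Figure D2:**
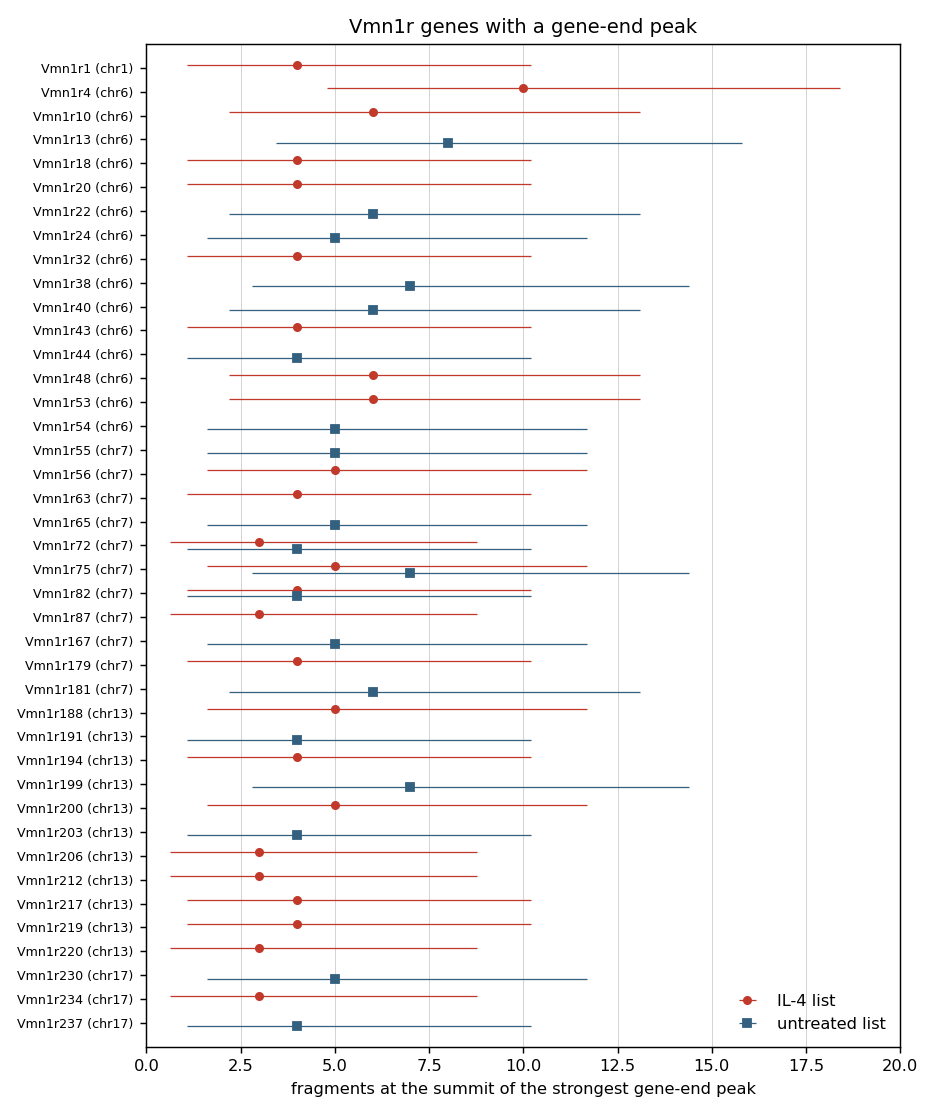
Fragments at the summit of the strongest end peak of each of the 41 Vmn1r genes that had such a peak in either list, ordered by chromosome and position. Circles are the IL-4 list, squares the untreated list and lines exact Poisson 95% intervals. The numbers run from 3 to 10 in IL-4 macrophages and from 4 to 8 in untreated macrophages, and only Vmn1r72, Vmn1r75 and Vmn1r82 have both marks.

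End peaks of Vmn1r genes had a median 1 fragment lower, and were narrower, than those of other genes in IL-4 macrophages. The strongest end peak per gene had a median of 4 fragments and a width of 150 bp at Vmn1r genes, against 5 fragments and 234 bp at all other protein-coding genes. Vmn2r genes had 4 fragments and 150 bp, and olfactory receptor genes 4 fragments and 170 bp, so this was shared by the like families. The share with at least 10 fragments was 1 of 25 (4.00%) at Vmn1r genes, the peak at Vmn1r4, and 699 of 9570 (7.30%) elsewhere. It was 0 at Vmn2r and at olfactory receptor genes. In the untreated list the medians were 5 fragments and 153 bp at Vmn1r genes, against 5 fragments and 179 bp elsewhere. These values describe peaks that had passed the authors' calling threshold.

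Peaks did not gather at the ends of Vmn1r genes. In the IL-4 list, summits within 1 kb of a Vmn1r gene end numbered 28, or 39.8 per Mb (26.4 to 57.5). From there to 50 kb, away from any gene end, they numbered 494, or 48.5 per Mb (44.3 to 52.9), each peak counted once. The ratio of ends to surroundings was 0.822 for Vmn1r genes and 1.70 for all other protein-coding genes, which had 172 and 101 per Mb. In the untreated list the ratio was 0.853 for Vmn1r genes, from 28.4 and 33.4 per Mb, and 1.11 for all other genes. The Vmn1r intervals for ends and surroundings overlap in both lists.

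Without the largest cluster the ratio of ends to surroundings was 0.913 in IL-4 macrophages and 0.881 in untreated macrophages. Vmn2r genes had 0.776 and 0.747. Olfactory receptor genes had 1.16 in IL-4 macrophages, and in untreated macrophages 58.8 summits per Mb at their ends against 43.6 around them. Genes of like length outside the receptor families had 1.55 and 1.09.

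**Figure D3:**
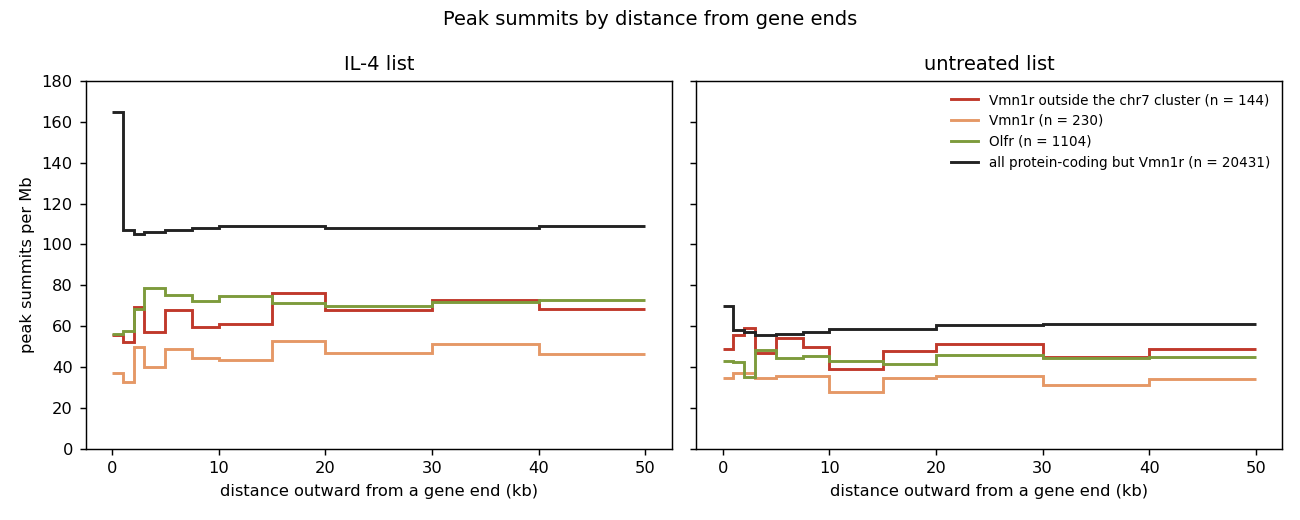
Peak summits per Mb by distance outward from either gene end, from 0 to 50 kb, for the IL-4 list and the untreated list, counted for each gene so that neighbours can share peaks. All protein-coding genes but Vmn1r rise to 165 per Mb in the first kb of the IL-4 list, whereas Vmn1r genes stay at 37.0 there and between 32.6 and 53.0 beyond.

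The start of the gene did not stand out either. Among 205 Vmn1r genes with a known strand, 13 (6.34%) had a summit within 1 kb of the annotated start in IL-4 macrophages and 5 (2.44%) in untreated macrophages. Among 16251 other genes these shares were 42.2% and 14.9%. Within 250 bp of the start they were 2.44% and 0.488% for Vmn1r genes, against 23.6% and 5.64% for the others. Of the 25 IL-4 summits 9 lay inside the gene, and of the 19 untreated summits 3 did.

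Around the genes, peaks were sparse and unevenly spread. Within 50 kb a Vmn1r gene had a median of 5 peaks in IL-4 macrophages (quartiles 0 and 8) and 3 in untreated macrophages (quartiles 0 and 5). Over all protein-coding genes the medians were 14 and 7. Peaks in the gene body count too, and the median length of all genes was 17491 bp. The 2327 genes of like length outside the chemosensory families had medians of 12 and 6. The median log2((IL-4 peaks + 1)/(untreated peaks + 1)) was 0.00 for Vmn1r genes and 0.81 for all genes. The 65 genes described next have no peak in either list, and the added 1 sets their ratio at 0. Outside the largest cluster the median was 0.58. The ratio was above 0 in 112 Vmn1r genes, below 0 in 37 and 0 in 81. No peak of either list lay within 50 kb of 65 Vmn1r genes (28.3%), against 2.17% of all genes. The share was as high among the 60 genes outside the receptor families within 50 kb of a Vmn1r cluster, 17 of 60 (28.3%), and it was 13.9% among Vmn2r genes. Of the 65 Vmn1r genes, 63 belonged to a single cluster. The remaining 2, Vmn1r186 and Vmn1r187, are listed before the first peak summit of chromosome 7, at 3008124, so their 0 is no measurement.

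That cluster lies on chromosome 7 from 20101158 to 24055691, from Vmn1r91 to Vmn1r183, and holds 86 of the 230 genes. With 50 kb flanks it held 55 peaks of the IL-4 list, or 13.6 per Mb (10.2 to 17.7), and 39 of the untreated list, or 9.62 per Mb (6.84 to 13.1). Chromosomes 1 to 19 averaged 99.0 and 61.8 per Mb, 7.30 and 6.42 times as many. Of 591 windows of 4 Mb tiled over these chromosomes, 1 was sparser in either list, at the start of chromosome 14. In the IL-4 list 66 of the 86 genes had no peak within 50 kb (76.7%, against 2.37% of all genes), and in untreated macrophages 64 had none (74.4%, against 3.45%). An end peak stood at 1 of the 86 in IL-4 macrophages, Vmn1r179, and at 2 in untreated macrophages, Vmn1r167 and Vmn1r181.

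The remaining 15 clusters together held 68.6 peaks per Mb (63.1 to 74.4) in IL-4 macrophages and 46.3 (41.9 to 51.1) in untreated macrophages, 0.693 and 0.750 times the chromosome average. Without Vmn1r186 and Vmn1r187 the densities were 70.1 and 47.3. Among the 144 genes outside the chromosome 7 cluster, 24 (16.7%, 11.0 to 23.8) had an end peak in IL-4 macrophages and 17 (11.8%, 7.03 to 18.2) in untreated macrophages, against 51.4% and 24.0% of all genes. These genes hold all 4 end peaks at a q of at most 0.05 in each list.

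Single clusters differed from each other. The 28 genes on chromosome 6 from 56923914 to 58472878 had 82.5 peaks per Mb (69.2 to 97.6) in IL-4 macrophages and 41.8 (32.6 to 53.0) in untreated macrophages. The 15 genes on the same chromosome from 89711261 to 90270053 had 80.5 (60.3 to 105) and 83.5 (62.9 to 109), with the untreated list as dense as the IL-4 list. The 35 genes on chromosome 13 had 70.5 (56.6 to 86.8) and 45.2 (34.2 to 58.5), and the 14 on chromosome 17 had 58.2 (44.2 to 75.3) and 44.2 (32.1 to 59.3). Vmn1r54, Vmn1r86 and Vmn1r85 had the most peaks within 50 kb. Vmn1r54 had 11 with IL-4 and 16 untreated, Vmn1r86 had 15 with IL-4 and 11 untreated, and Vmn1r85 had 16 with IL-4 and 8 untreated.

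**Figure D4:**
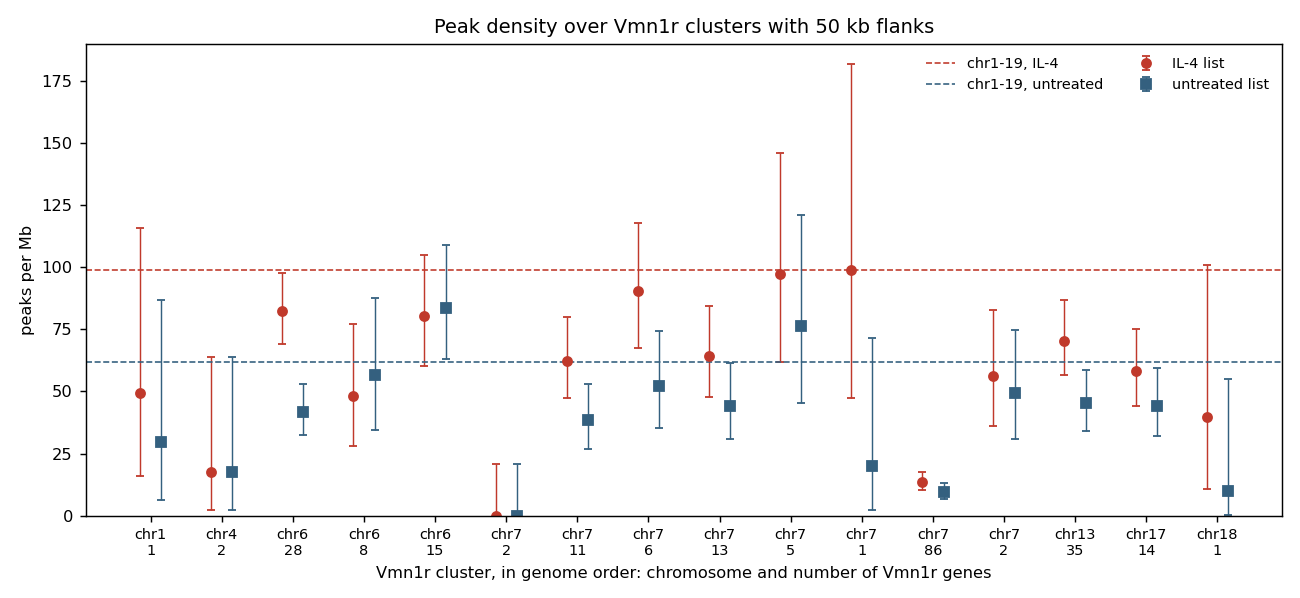
Peaks per Mb over each of the 16 Vmn1r clusters with 50 kb flanks, in IL-4 macrophages (circles) and untreated macrophages (squares), with exact Poisson 95% intervals. Dashed lines are the averages of chromosomes 1 to 19, at 99.0 and 61.8. The chromosome 7 cluster of 86 genes stands at 13.6 and 9.62, below every other cluster with more than 2 genes. The point at 0 is Vmn1r186 and Vmn1r187, listed where neither list has peaks, and is no measured density.

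The sparse cluster was also the one with repeated promoter sequence. For each promoter, the share of its words of 50 bases that stand at another place in the promoter table was taken as a measure of repeats. The genome outside that table was not searched. In the chromosome 7 cluster the median share was 100% over 83 promoters, and 67 of them had at least 50% repeated. In the other clusters 4 of 122 had as much. Of the 83 promoters, 52 had an identical partner over all 300 bases among the others of the cluster, and in the other clusters 2 of 122 did.

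Pooled over all clusters the count mostly restates that cluster, which holds 67 of the 71 genes with at least 50% repeated. Of these 71 genes, 1 had an end peak in IL-4 macrophages, Vmn1r48, and 0 in untreated macrophages, which allows up to 4.23%, and 61 and 59 had no peak within 50 kb. Outside that cluster there were 4 such genes, too few to judge by. They had 1 IL-4 end peak, a median of 7 IL-4 peaks within 50 kb and none without a peak. The 85 genes there with no repeated word had 14 IL-4 end peaks (16.5%) and a median of 7. Of all 92 Vmn1r genes with no repeated word, 15 (16.3%) and 16 (17.4%) had an end peak. Over all protein-coding genes, 5.15% and 2.31% of 563 with at least 50% repeated had an end peak, against 55.1% and 25.4% of 15080 with none. Whether reads in such copies were dropped when the authors aligned them is not given in the sources used here, and the part of repeats in the low counts was not tested.

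Inside the chromosome 7 cluster, peaks lay toward its distal end. All 16 genes from Vmn1r167 on, from 23504642 to 24055691, had a peak within 50 kb, with 1 to 14 in IL-4 macrophages and 1 to 10 in untreated macrophages. Of the 70 genes before Vmn1r167, 7 had a peak. The median repeated share was 13.9% over 15 distal promoters and 100% over 68 before them. The point of division was chosen after these values were seen.

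**Figure D5:**
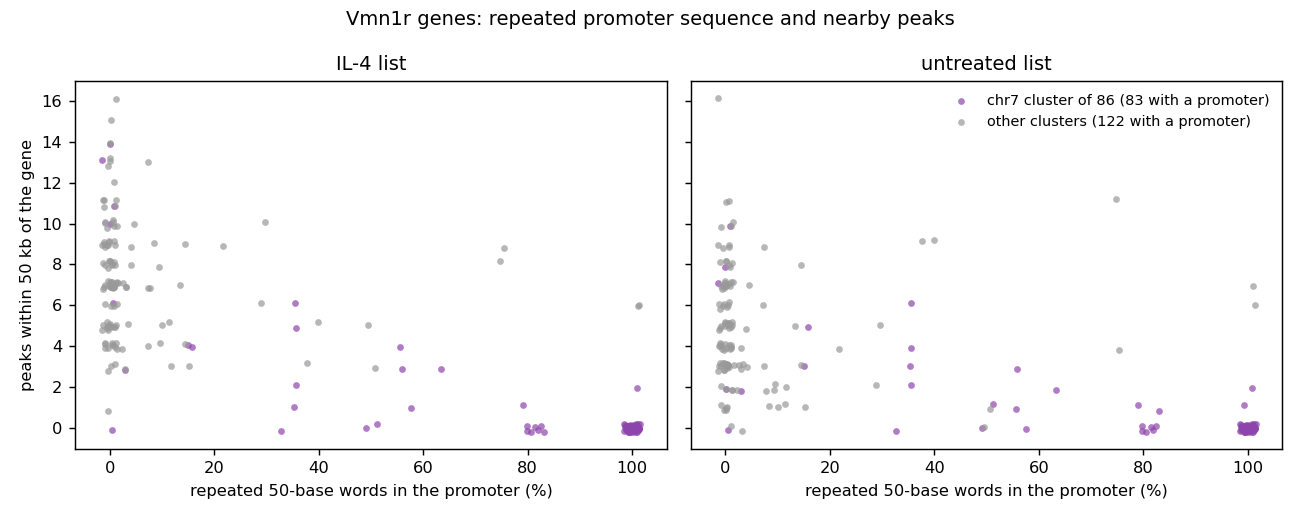
Peaks within 50 kb of each of 205 Vmn1r genes against the share of repeated 50-base words in its promoter, in percent, for the IL-4 list and the untreated list, with points spread slightly to part equal values. Genes of the chromosome 7 cluster crowd at 100% and 0 peaks, and most of the other genes have little repeated sequence and several peaks.

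Low CG content went along with fewer end peaks in all genes, and Vmn1r genes, pooled over all clusters, were lower still. Of 166 Vmn1r genes with at most 2 CG, 11.4% (7.03 to 17.3) had an end peak in IL-4 macrophages and 10.2% (6.08 to 15.9) in untreated macrophages. Among 1861 genes outside the receptor families with as few CG, 30.2% (28.1 to 32.3) and 18.2% (16.5 to 20.0) did. With at least 24 CG the shares were 67.6% and 26.4%, so that CG content went with the IL-4 share more than with the untreated share. Of 803 olfactory receptor genes with at most 2 CG, 20.8% had an end peak in IL-4 macrophages and 15.9% in untreated macrophages. These were also below 30.2% and 18.2%, but the untreated intervals overlap. The 166 Vmn1r genes include members of the chromosome 7 cluster with repeated promoters. Vmn1r genes with no repeated word, whatever their CG, had 16.3% with IL-4 and 17.4% untreated, the latter near 18.2%. The part of base composition was not tested.

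Other genes of the same regions were also below all genes, but less far. In untreated macrophages their interval took in the share of all genes. Of 60 genes outside the receptor families within 50 kb of a cluster, 22 (36.7%, 24.6 to 50.1) had an end peak in IL-4 macrophages and 10 (16.7%, 8.29 to 28.5) in untreated macrophages, against 51.4% and 24.0% of all genes. Counting only summits inside the arrays and their 50 kb flanks, 21 and 9 did. At a q of at most 0.05 the counts inside were 12 (20.0%) with IL-4, near the 19.2% of all genes, and 0 untreated, which allows up to 5%, against 4.25%. Of the 60 genes, 17 (28.3%) had no peak within 50 kb in either list, and the 60 were not split by cluster. Ppp2r1a, encoding the scaffold subunit of protein phosphatase 2A, had 13 fragments in IL-4 macrophages and 4 in untreated macrophages, in the chromosome 17 array. Mad2l1, a gene of the spindle checkpoint, had 13 and 6, on chromosome 6.

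Peaks near Vmn1r genes recurred between the lists about as often as peaks anywhere. Within 50 kb of a member, 31 of 539 IL-4 peaks (5.75%, 3.94 to 8.06) shared at least 1 bp with an untreated peak, against 5.48% over chromosomes 1 to 19. Of 367 untreated peaks 32 (8.72%, 6.04 to 12.1) shared it with an IL-4 peak, against 8.77%. At a q of at most 0.05 there were 50 IL-4 peaks (9.28%, against 12.5% of all peaks) and 48 untreated peaks (13.1%, against 14.7%). Away from gene ends the strongest had 8 fragments with IL-4, 7500 bp from Vmn1r201 and 9783 bp from Vmn1r65, and 10 untreated, 16740 bp from Vmn1r204.

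Of 12 genes of vomeronasal neurons, 5 had an end peak in IL-4 macrophages and 5 in untreated macrophages, 2 of them in both, beside 51.4% and 24.0% of all genes. Gnai2, which is widely expressed, had 11 fragments at −log10 q 4.55 in IL-4 macrophages and none in untreated macrophages, and Gng8, a G protein γ subunit gene of these neurons, had 10 at 5.23 and none. Gnao1, a G protein subunit gene of neurons, led the untreated list with 8 fragments at 1.57 and had none in IL-4 macrophages. Trpc2 had 4 fragments in IL-4 macrophages only, and Omp, encoding olfactory marker protein, had none in either. Of 12 macrophage genes 8 had an end peak in IL-4 macrophages and 2 in untreated macrophages, beside the same shares of all genes, led by Tyrobp, an adaptor of myeloid receptors, with 7 fragments at 2.58 in IL-4 macrophages. Csf1r, Adgre1, Itgam and Lyz2, which are expressed by macrophages, had none in either list. Of 6 neuron genes 3 had one in each list, beside those shares, led by Slc17a6, a glutamate transporter gene, with 10 fragments at 5.36 in IL-4 macrophages.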

How the data were processed

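Peaks of PHLPP1 CUT&Tag came from 1 IL-4 library and 1 untreated library. Per the submitters' processing notes, Bowtie 0.12.8, MACS2 2.2.7.1, DiffBind and mm10 were used, with no role or order given. How reads that align to several places, duplicates and controls were treated is not given in the sources used here. Deposited by the authors was 1 list of peaks for each library, with a linear fold enrichment ratio, a −log10 p and a −log10 q for each peak, and a score that equals the −log10 p times 10. These are the authors' values for each peak. The lists held 240661 peaks with IL-4 and 149349 untreated, after repeated entries of an interval were merged, keeping the best summit by q. The lowest −log10 p was 2.00 in both.

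Fragments at a summit were solved from the deposited fold, taken as (fragments + 1)/(background + 1), and the Poisson p, and a whole number matched within 0.01 in 100% of peaks. Lowest backgrounds were 0.643 with IL-4 and 0.936 untreated, a product of depth and fragment length. Total reads were not used. Intervals are at 95% and cover counting error only, since amplified fragments are not independent molecules. A count of 0 allows up to 3 counts.

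Genes came from the RefSeq table of GRCm38.p6, the build of mm10. The scripts, in Python 3.11.15 with SciPy 1.17.1, were tested on simulated data. Members and lists were chosen with earlier results of these data known. Length-matched random genes were not drawn, and all genes of like length were used. Named genes were those with an end peak in both lists or at a q of at most 0.05, the 10 strongest per list and the 3 with most peaks within 50 kb. At rank 10, 11 genes tied with IL-4 and 6 untreated, and 65 genes tied for fewest peaks, so ties are given as counts. Ppp2r1a, Mad2l1, Vmn1r65, Vmn1r201 and Vmn1r204 were named after their values were seen.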

Additional observations from a re-analysis of the deposited data

How the results depend on the processing

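Of 64 alternative values for 9 results, 35 stayed within the interval of the reported value. With a window of 500 bp, all genes gave 38.2% with IL-4 and 14.1% untreated. The share of Vmn1r genes with an end peak was then 6.52% in IL-4 macrophages and 5.65% in untreated macrophages. With 3 kb it was 23.5% with IL-4 and 19.1% untreated, with 5 kb 33.0% and 27.4%, at gene starts only 6.34% and 2.44%, and at a q of at most 0.05 1.74% in each. All genes gave 76.6% and 48.6% at 3 kb, and 85.6% and 62.3% at 5 kb. Without the chromosome 7 cluster, a choice made after seeing the data as was leaving out Vmn1r4, the IL-4 share was 16.7%. With lists of equal length it was 7.83% with IL-4 and 8.26% untreated, against 40.6% and 24.0% of all genes. The median number of peaks near a gene was 0 in both lists within 10 kb and at a q of at most 0.05, 11 with IL-4 and 7 untreated within 100 kb, and 7 and 5 without the chromosome 7 cluster. In the IL-4 list it was 3 with peaks of at least 4 fragments and with equal lists. The median log2 ratio was 0.458 with 1 value per cluster and 0.585 without the chromosome 7 cluster. Peaks per Mb over clusters were 50.9 with IL-4 and 34.5 untreated. They were 5.17 and 4.61 at a q of at most 0.05 and 68.6 and 46.3 without the chromosome 7 cluster. In the IL-4 list they were 32.4 with at least 4 fragments and 31.3 with equal lists, below the untreated 34.5, which turned the order of the lists. The share of untreated peaks that recurred was 4.17% at a q of at most 0.05, or 2 of 48 peaks. For IL-4 peaks it was 4.00%, or 2 of 50. These counts are too small to judge by, and no share over all peaks is given here at that threshold. Adding chromosomes X and Y could give no value, since the gene table has no protein-coding Vmn1r gene there. Without Vmn1r186 and Vmn1r187, also a later choice, the shares were 11.0% with IL-4 and 8.33% untreated, and without the 105 genes of all kinds that precede the first peak of their chromosome all genes gave 51.7% and 24.1%. No paired analysis was possible because each group had 1 library, and with 1 library none could be left out.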

Other observations

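The formyl peptide receptor family holds both receptors of myeloid cells and receptors used by vomeronasal neurons, and stands on chromosome 17. Fpr1 and Fpr2, the myeloid receptors for bacterial peptides, had no end peak in either list. Within 50 kb they had 13 and 14 peaks in IL-4 macrophages and 7 and 4 in untreated macrophages, against medians of 14 and 7 over all genes. Fpr-rs3, a related gene inside the Vmn1r array of that chromosome, had 6 peaks in IL-4 macrophages and 7 in untreated macrophages. It was the 1 member of 7 with an end peak, of 4 fragments, in IL-4 macrophages only.

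The 1 window of 4 Mb with fewer peaks per Mb than the chromosome 7 cluster ran from 3004759 to 7004758 on chromosome 14, with 9 peaks in IL-4 macrophages and 5 in untreated macrophages, against medians of 391 and 241 over all windows.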
